A study of Mus musculus with 6 samples.

Results

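The 26S proteasome genes of HK-2 cells were examined for a response to USAG-1 overexpression. Genes were taken by symbol from the deposited count table: those named PSM followed by a letter from A to G and a number, and POMP, ADRM1 and SEM1. The rule found 50 of 39234 genes, of which 49 passed the filter on low counts. HK-2 is an immortalized line from human proximal tubule, and the series holds 3 RNA libraries labelled as control and 3 labelled USAG1_OE, all of wild-type genotype. USAG-1 is a secreted antagonist of BMP and WNT signalling, and the comparison asks what its overexpression does to the transcripts of these cells. The labels name neither the vector nor the treatment of the controls, and they give mouse as the organism, whereas the gene identifiers are human. The study's methods describe overexpression from transiently transfected plasmids and state that the cells were not authenticated by STR profiling. The study's methods speak of biological replicates for most of its experiments, without naming the sequencing. The labels do not say that these replicates were grown as separate cultures, so the p-values measure only the spread between these libraries, which may be technical.

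The proteasome degrades proteins that carry ubiquitin chains. Its core particle is a stack of alpha and beta rings, and PSMB5, PSMB6 and PSMB7 hold the active sites within it. The regulatory particle that caps the core has a base, in which a ring of PSMC ATPases unfolds the substrate, and a lid, in which PSMD14 cuts the ubiquitin chain off. Immune cells, and other cells under interferon, replace the catalytic subunits by PSMB8, PSMB9 and PSMB10 to form the immunoproteasome, and they make the PA28 activator of PSME1 and PSME2. In proximal tubule, where absorbed and damaged proteins turn over quickly, the proteasome works beside the lysosome. When proteasome activity falls short, the transcription factor NRF1, encoded by NFE2L1, is known to raise many subunit genes together.

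The libraries held 41236194 to 48699471 counts on genes. SOSTDC1, which encodes USAG-1, had 60 to 80 counts in the control libraries and 3907 to 5072 in the libraries with USAG-1 overexpression. Mitochondrially encoded genes took 4.8 to 5.59% of counts in control and 1.5 to 1.55% in overexpressing libraries, and leaving them out changed none of the calls given for proteasome genes. Levels are given as CPM, counts scaled to library size after TMM normalization, and they were not compared between genes, since no transcript lengths of this annotation were used here. PAX8, KRT8 and KRT18, genes of kidney epithelium, were present at 365 CPM or more, 971 CPM or more and 282 CPM or more. CDH1 and PAX2 stayed at or under 0.328 CPM. The markers of differentiated proximal tubule LRP2, CUBN and AQP1 were at or near 0, with no count of LRP2 in any library, CUBN at most at 0.359 CPM and AQP1 at most at 0.188 CPM. SLC34A1, SLC5A2 and ANPEP were low (at most 0.588, 2.07 and 3.61 CPM), whereas GGT1, a brush border enzyme, was at 117, 112 and 85.1 CPM in control libraries and rose to 164, 137 and 158 CPM (log2 fold change 0.55, standard error 0.12, adjusted p = 0.0208). Control replicate 3 stood apart. A chi-square test of its counts against either other control gave, per degree of freedom, at least 48.2, against 6.8 between control replicates 1 and 2 and at most 8.84 among the libraries with USAG-1 overexpression. It was the highest of the 3 controls in 38 of the 49 proteasome genes and in 40.3% of all genes tested, so results are given with and without it.

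With all 6 libraries, 5 of the 49 proteasome genes rose with USAG-1 overexpression with an adjusted p below the threshold of 0.05 (edgeR, quasi-likelihood, two-sided, Benjamini-Hochberg over all genes tested). All of them encode parts of the regulatory particle, namely PSMC1, PSMC2, PSMD1, PSMD3 and PSMD14. Among all genes tested, 8.95% were called higher, so the share of proteasome genes was near the background. No proteasome gene was called lower, where the background is 6.91%. DESeq2 called PSMB9 and PSMB10 lower, and it called 1726 of 18188 genes lower in all. In either direction, 13 of the 49 genes had an unadjusted p under 0.05 (edgeR), as did 5552 of all 18188 genes tested. The median log2 fold change of the proteasome genes was 0.04, beside -0.02 for all genes tested. Without control replicate 3, 24 proteasome genes were called higher and 2 lower (background 15.8% and 11.2%), and the median was 0.14. Leaving out another control library gave 1 higher gene (PSMC2) in each case, and 2 lower genes (PSMB9 and PSME2) without control replicate 1.

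**Figure D1:**
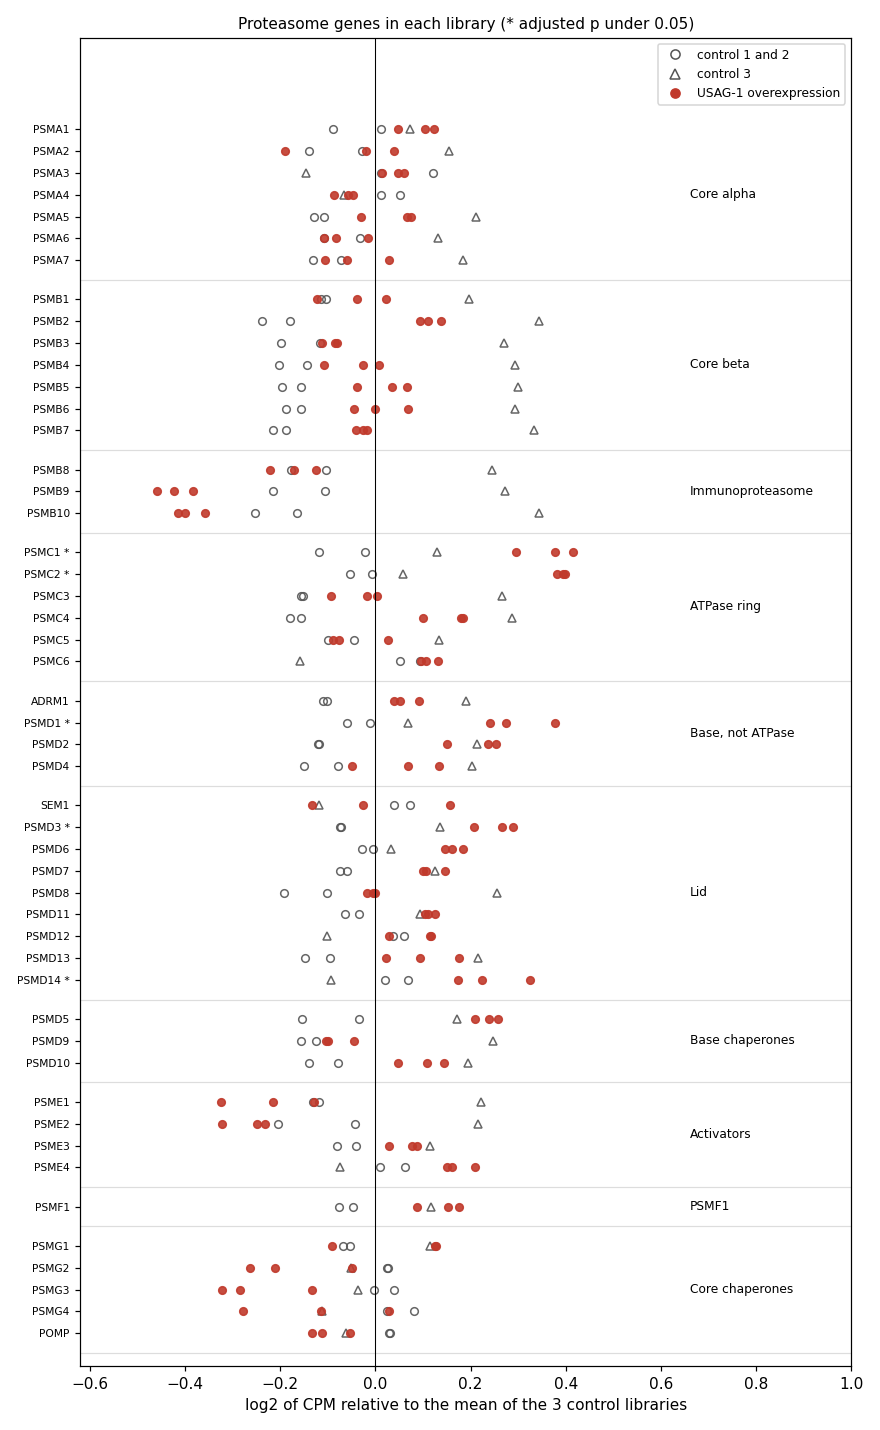
Each of the 49 tested proteasome genes is a line, grouped by role, and each point is 1 library, placed by the log2 of its CPM relative to the mean of the 3 control libraries. Open circles are control replicates 1 and 2, open triangles are control replicate 3, filled circles are USAG-1 overexpression, and an asterisk marks an adjusted p under 0.05; the triangles lie to the right of all other points in the 7 core beta genes, and the filled circles lie to the left of all controls in PSMB9 and PSMB10.

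Of all proteasome genes, PSMC2 of the ATPase ring had the smallest p. PSMC2 (ENSG00000161057; chromosome 7, 103328570 to 103370346), an ATPase of the base also called RPT1, was at 81.2, 83.8 and 87.7 CPM in the 3 control libraries and at 111, 109.8 and 111 CPM in the 3 libraries with USAG-1 overexpression. The groups did not overlap, and control replicate 3 was only slightly above the other controls. PSMC2 rose by a factor of 1.31 (log2 fold change 0.39, standard error 0.06, adjusted p = 0.00346), and it was called in all 15 alternative analyses. PSMC1 (ENSG00000100764; chromosome 14, 90256527 to 90275429), the ATPase RPT2, had 105, 98.4 and 117 CPM in control cells and 142, 131 and 139 CPM in USAG-1-overexpressing cells. These groups also did not overlap, and the rise was by a factor of 1.29 (log2 fold change 0.36, standard error 0.08, adjusted p = 0.0157). PSMC1 lost its call when any library other than control replicate 3 was left out, with adjusted p between 0.0501 and 0.0771.

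Both genes overlap others in the table, and the strand used in counting is not given in the sources used here. PSMC2 shares 942 bases with PMPCB on the same strand and 16229 bases with DNAJC2 on the other, and neither of these was called (log2 fold changes 0.03 and 0.30, adjusted p = 0.852 and 0.276). PSMC1 shares 7570 bases with NRDE2 on the other strand, which was not called (log2 fold change -0.19, adjusted p = 0.119, edgeR). PSMC1 also has 8 pseudogene copies in the table, whose counts came to 9.33% of those of PSMC1. Almost all of these lay on PSMC1P1, at 9.45 CPM on average in control and 12.7 CPM in USAG-1-overexpressing cells, so the split of reads between them and PSMC1 is uncertain.

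The other 4 ATPases, PSMC3 to PSMC6, did not pass the test (log2 fold changes -0.04, 0.16, -0.05 and 0.11, standard errors 0.11, 0.12, 0.08 and 0.08). PSMC4 was at 87.5, 88.9 and 121 CPM in control and 106, 112 and 113 CPM in USAG-1-overexpressing cells, so that control replicate 3 alone lay above the overexpressing libraries. Without that library its log2 fold change was 0.33 (adjusted p = 0.000835, same test). PSMC6 was the only ATPase gene in which control replicate 3 was the lowest of the controls, at 75.1, 73.1 and 63.2 CPM in control cells against 75.3, 77.2 and 75.9 CPM. For the ring of 6 genes the median log2 fold change was 0.13, and 0.23 without control replicate 3.

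Among the 4 other genes of the base, PSMD1 (ENSG00000173692; chromosome 2, 231056845 to 231173116) rose. PSMD1, or RPN2, is a large scaffold of the base on which the ubiquitin receptor ADRM1 docks. It had 175, 169 and 184 CPM in control cells and 213, 228 and 208 CPM in USAG-1-overexpressing cells, with no overlap between the groups (log2 fold change 0.30, standard error 0.06, adjusted p = 0.0156). The call was lost in 5 of 15 alternatives, among them an offset for genomic span (log2 fold change 0.21, adjusted p = 0.0923). PSMD2, the scaffold RPN1, was at 1044, 1046 and 1317 CPM in control cells and at 1260.5, 1354 and 1338 CPM with USAG-1 overexpression. Control replicate 3 fell inside the range of the overexpressing libraries, and PSMD2 did not pass the test (log2 fold change 0.21, standard error 0.09, adjusted p = 0.163), whereas it was called without that library (log2 fold change 0.34, adjusted p = 0.000196). The ubiquitin receptors PSMD4 and ADRM1 had log2 fold changes of 0.05 and 0.06, with overlapping groups. Without control replicate 3 these were 0.17 (adjusted p = 0.051) and 0.17 (adjusted p = 0.00824).

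In the lid, 2 of 9 genes rose and 8 had a log2 fold change above 0, with a median of 0.11 and of 0.19 without control replicate 3. Among all 18188 genes tested, 8.95% were called higher and 8644 had a log2 fold change above 0. PSMD3 (ENSG00000108344; chromosome 17, 39980807 to 39997959), the structural subunit RPN3, had 207, 207 and 239 CPM in control and 251, 262 and 266 CPM in USAG-1-overexpressing cells (log2 fold change 0.25, standard error 0.07, adjusted p = 0.0445). PSMD14 (ENSG00000115233; chromosome 2, 161308425 to 161411717) encodes RPN11, the metalloprotease that removes ubiquitin chains. Its levels were 92.9, 89.8 and 83.1 CPM in control cells and 103, 100.0 and 111 CPM with USAG-1 overexpression (log2 fold change 0.24, standard error 0.07, adjusted p = 0.0475), and here control replicate 3 was the lowest of the controls. In both genes the groups did not overlap. Both calls lay close to the threshold: PSMD3 was called in 8 and PSMD14 in 5 of 15 alternatives, and of the fits that left out 1 library only the one without control replicate 3 kept either. With a replicate block PSMD14 was no longer called (adjusted p = 0.0862).

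The remaining lid genes did not pass with all libraries. PSMD6, a structural subunit, came nearest (log2 fold change 0.16, standard error 0.05, adjusted p = 0.0683), with 137, 139 and 143 CPM in control and 156, 159 and 155 CPM in USAG-1-overexpressing cells and no overlap. PSMD11 also did not overlap between groups (log2 fold change 0.11, adjusted p = 0.248), while PSMD7, PSMD8, PSMD12, PSMD13 and SEM1 did, with log2 fold changes between -0.01 and 0.12. PSMD6, PSMD7, PSMD8, PSMD11 and PSMD13 were called higher without control replicate 3 (log2 fold changes 0.19, 0.19, 0.14, 0.17 and 0.23). Over all 49 proteasome genes the groups did not overlap in 10 genes with overexpression above and in 4 with overexpression below, where the background is 19.4% and 18.1% of genes tested. The share above was near that background. Of the 10 genes, 8 belong to the regulatory particle, of which 19 genes were tested. None belongs to the core alpha and constitutive beta genes, of which 14 were tested. Control replicate 3 was the highest control in 15 of the 19 and in 12 of the 14, so this split also rests on that library.

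**Figure D2:**
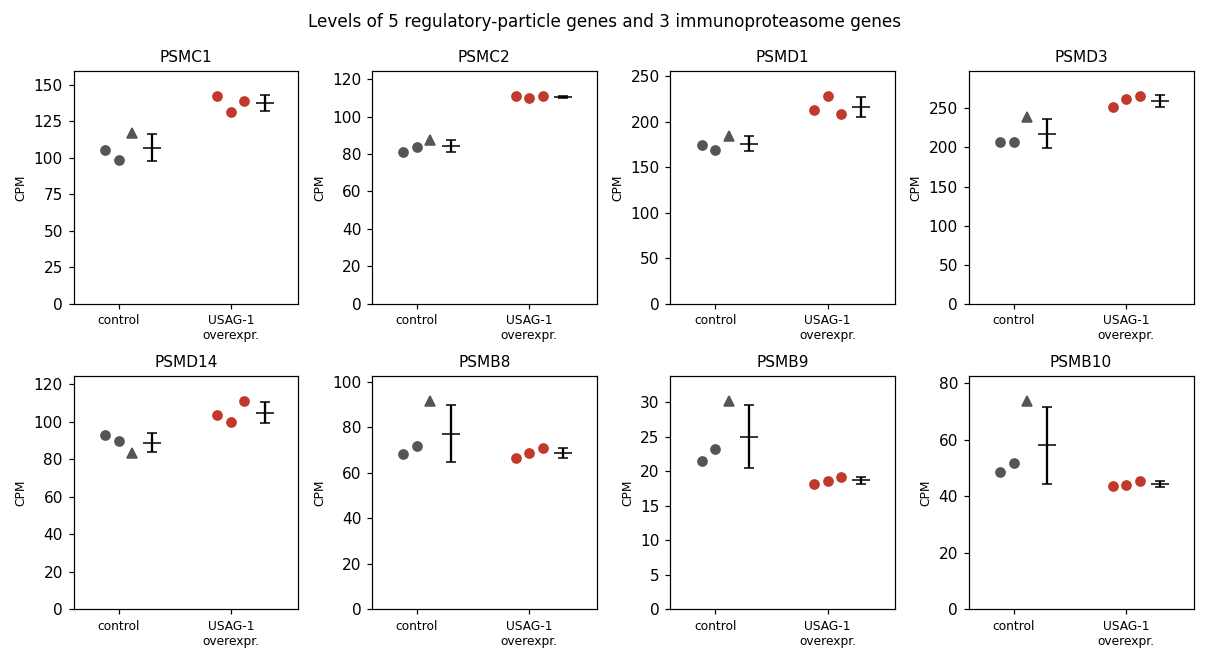
CPM of 8 genes in each library, with control libraries in grey (control replicate 3 as a triangle), libraries with USAG-1 overexpression in red, and the mean with its SD (n = 3) in black at the right of each group; vertical axes start at 0. The overexpressing libraries lie above all controls in the 5 genes of the regulatory particle, below all controls in PSMB9 and PSMB10, and within the range of the controls or below it in PSMB8.

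The core particle showed no call with all libraries. The 7 alpha genes tested, which form the outer rings and the gate, had log2 fold changes between -0.07 (PSMA6) and 0.09 (PSMA1), with a median of -0.04. PSMA1, which had the smallest p among them, was at 128, 137 and 143 CPM in control and 141, 148 and 147 CPM in USAG-1-overexpressing cells (adjusted p = 0.362). Every alpha gene overlapped between the groups. PSMA8, the testis form of PSMA7, was not analysed here.

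The 7 constitutive beta genes had log2 fold changes between -0.09 (PSMB3) and 0.11 (PSMB2), with a median of -0.03. PSMB2, which had the smallest p among them, was at 271, 260 and 390 CPM in control and 332, 328 and 338 CPM in USAG-1-overexpressing cells (adjusted p = 0.636, edgeR). PSMB5, which carries the chymotrypsin-like site, had 103, 100.2 and 141 CPM in control cells and 112, 118 and 120.2 CPM with USAG-1 overexpression. PSMB6, with the caspase-like site, had 71.1, 72.6 and 99.2 and 78.5, 80.9 and 84.9 CPM, and PSMB7, with the trypsin-like site, had 190.0, 186 and 273 and 210.4, 212 and 214 CPM. In each of the 3, the overexpressing libraries lay between control replicates 1 and 2 below and control replicate 3 above. The log2 fold changes were 0.02, 0.01 and -0.03, with standard errors of 0.13, 0.12 and 0.14. PSMB11, the subunit of the thymoproteasome, had 0 counts in every library, which allows a level of up to 0.0728 CPM in the shallowest library.

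What the core beta genes showed depended on control replicate 3. It was above the mean of the other controls by a median of 38.2% in the core beta genes, 34.9% in the immunoproteasome genes and 15% in the alpha genes. This median was 23.7% in the base genes that are not ATPases, 15.1% in the ATPases and 10.3% in the lid. In the base chaperones it was 23.4%, in the activators 19.7%, in the core chaperones -5.18% and over all genes tested -0.73%. Without control replicate 3, 5 of the 7 constitutive beta genes were called higher in USAG-1-overexpressing cells (PSMB2, PSMB4, PSMB5, PSMB6 and PSMB7). The median log2 fold change of the 7 was then 0.18. PSMB4, PSMB7 and the lid gene PSMD8 changed direction and passed the threshold, with log2 fold changes of 0.14, 0.18 and 0.14 in place of -0.04, -0.03 and -0.01. The log2 fold change of PSMB2 moved from 0.11 to 0.33 (adjusted p = 0.000237). Without the library, 13 of 19 regulatory-particle genes and 1 of 7 alpha genes (PSMA5) were called higher. The labels give no processing batch for it, and why it differs was not tested.

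**Figure D3:**
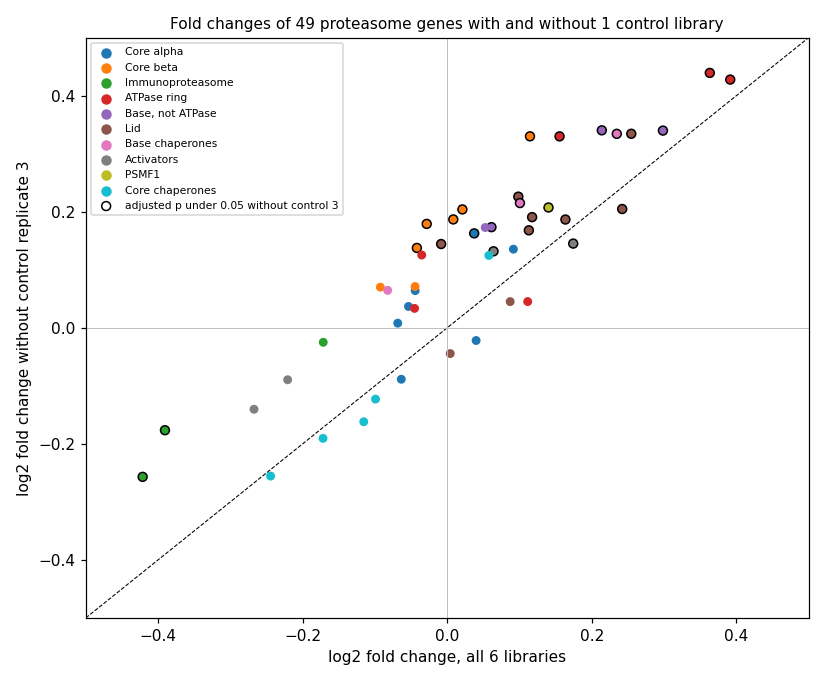
Log2 fold change of each of the 49 tested proteasome genes with all 6 libraries (horizontal axis) against that without control replicate 3 (vertical axis), coloured by role; a black rim marks an adjusted p under 0.05 without that library, and the dashed line marks equal values. The 7 core beta genes all lie above the line, and PSMB9 and PSMB10 stay below 0 on both axes.

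All 3 immunoproteasome genes had log2 fold changes below 0 (median -0.39, and -0.18 without control replicate 3), although none passed the threshold with all libraries. PSMB9 (ENSG00000240065; chromosome 6, 32844136 to 32859851), which replaces PSMB6, was at 21.5, 23.2 and 30.2 CPM in control cells and 18.1, 18.6 and 19.1 CPM in USAG-1-overexpressing cells. PSMB10 (ENSG00000205220; chromosome 16, 67934506 to 67936847), which replaces PSMB7, was at 48.7, 51.8 and 73.7 CPM against 43.5, 44 and 45.3 CPM. In both genes every overexpressing library lay below every control, and the overexpressing libraries were close together. The log2 fold changes were -0.42 (standard error 0.13, adjusted p = 0.0583, edgeR) and -0.39 (standard error 0.14, adjusted p = 0.107, edgeR). Without control replicate 3 the differences were smaller but both passed, at -0.26 (adjusted p = 0.0358) and -0.18 (adjusted p = 0.0356). DESeq2's Wald test called both with all libraries (adjusted p = 0.0177 and 0.0402). That test called 1726 of 18188 genes lower, where edgeR called 1256. Over 15 alternatives PSMB9 was called in 5, with adjusted p from 0.0177 to 0.177, and PSMB10 in 2, with adjusted p from 0.0356 to 0.262.

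PSMB8 (ENSG00000204264; chromosome 6, 32840717 to 32844047), which replaces PSMB5, differed less. It was at 68.2, 71.8 and 91.5 CPM in control and 66.2, 68.5 and 70.8 CPM in USAG-1-overexpressing cells, so the groups overlapped (log2 fold change -0.17, standard error 0.11, adjusted p = 0.331), and without control replicate 3 the log2 fold change was -0.02. PSMB8 and PSMB9 are neighbours with 88 bases between them and lie on opposite strands. PSMB9 shares 8509 bases with TAP1, a subunit of the peptide transporter that feeds class I molecules, which lies on the other strand and fell (log2 fold change -0.32, adjusted p = 0.0326, edgeR). TAP1 was at 66.9, 65.8 and 78.9 CPM in control cells and at 56.4, 57.8 and 55.8 CPM with USAG-1 overexpression. Since the strand setting of the counting is not known, reads of PSMB9 and TAP1 in the shared stretch cannot be told apart. PSMB10 shares 1512 bases with ENSG00000261884 on the same strand. That gene was at 10.7 CPM on average in control and 11.2 CPM with overexpression (log2 fold change 0.07, adjusted p = 0.864, edgeR).

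The ratio of an immunoproteasome gene to the constitutive gene it replaces is taken within a library and does not depend on scaling between libraries. Counts of PSMB9 per count of PSMB6 were 0.303, 0.32 and 0.304 in control libraries and 0.231, 0.23 and 0.225 with USAG-1 overexpression, a change of -25.9%. PSMB10 per PSMB7 was 0.256, 0.278 and 0.27 against 0.207, 0.207 and 0.212, a change of -22.2%. For PSMB8 per PSMB5 the values were 0.662, 0.716 and 0.647 and 0.592, 0.583 and 0.589, a change of -12.9%. The groups did not overlap in any of the 3 ratios, and control replicate 3 lay among or next to the other controls, unlike in the levels themselves. Without it the changes were -26.4%, -21.9% and -14.7%. A ratio does not tell a lower numerator from a higher denominator. In the fit that omits control replicate 3, PSMB5, PSMB6 and PSMB7 were called higher (log2 fold changes 0.20, 0.19 and 0.18), while PSMB8, PSMB9 and PSMB10 were at -0.02, -0.26 and -0.18, so the change for PSMB8 over PSMB5 then lay almost wholly in PSMB5. These ratios are a description with no test, and they do not compare the amounts of the subunits, since counts also depend on transcript length.

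**Figure D4:**
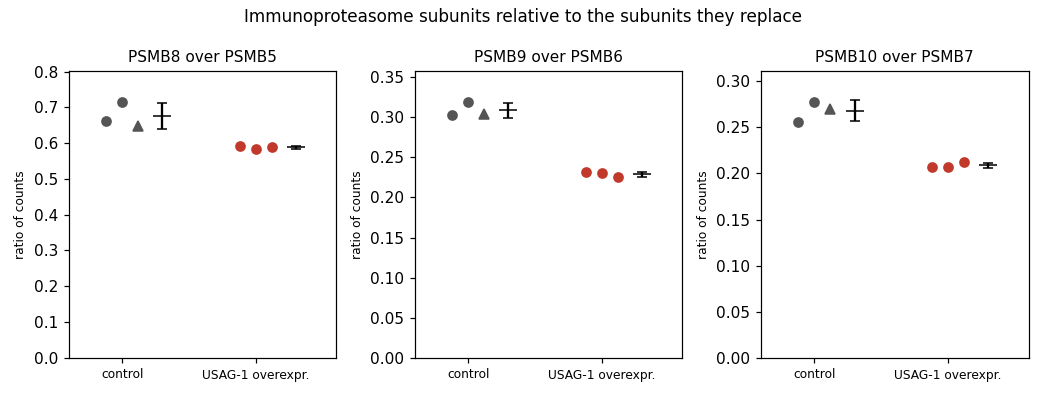
Ratio of the counts of each immunoproteasome gene to those of the constitutive gene it replaces, in each library, with control libraries in grey (control replicate 3 as a triangle), USAG-1 overexpression in red, and mean with SD (n = 3) in black; axes start at 0. In each panel the 3 red points lie below the 3 grey ones and close together.

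Most markers of another cell type moved in the same direction. Of 20 markers of T cells and cytotoxic cells, 18 fell with USAG-1 overexpression, where the background is 6.91% of genes tested. CD52 did not pass the test (log2 fold change -0.90, adjusted p = 0.244, edgeR). IL7R went the other way, with every overexpressing library above the controls, and did not pass either (log2 fold change 0.27, adjusted p = 0.161, edgeR). The summed level of the 20 markers was 158 to 186 CPM in control libraries and 45.2 to 51.9 CPM with overexpression. Within these sums, IL7R alone held 20.3 CPM on average in control and 24.4 CPM with overexpression. No marker was at 0 in all libraries. CD3D was at 0 in USAG-1 overexpression replicate 1, and CD2 and GZMA were at 0 in replicate 2. Of 4 B cell markers none was called by edgeR (0 with an unadjusted p under 0.05), with sums of 2.01 to 3.66 and 1.22 to 3.22 CPM, and of 6 myeloid markers LYZ fell, with sums of 35.9 to 50.1 and 25 to 29.5 CPM. Immune cells express the immunoproteasome, and the part of these transcripts in the values of PSMB9, PSMB10, PSME1 and PSME2 was not tested. In bulk RNA, fewer cells of a type and less RNA per cell cannot be told apart.

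None of the 4 activator genes passed the test with all libraries. PSME1 and PSME2, the 2 subunits of PA28 that interferon raises together with the immunoproteasome, had negative log2 fold changes, and PSME3 and PSME4, which form other activators, had positive ones. PSME2 (ENSG00000100911; chromosome 14, 24143362 to 24147570) was at 74.1, 82.9 and 99.1 CPM in control and 68.2, 71.8 and 72.7 CPM in USAG-1-overexpressing cells, with every overexpressing library below the controls (log2 fold change -0.27, standard error 0.10, adjusted p = 0.118). PSME1 (ENSG00000092010; chromosome 14, 24136163 to 24138967) was at 71.8, 72.4 and 91.7 CPM against 67.7, 62.8 and 71.9 CPM, with overlap (log2 fold change -0.22, standard error 0.10, adjusted p = 0.199). Without control replicate 3 the log2 fold changes were -0.14 and -0.09. The genes lie 4394 bases apart on chromosome 14. PSME4, which encodes PA200, was at 59.7, 61.9 and 56.4 CPM in control and 68.6, 65.9 and 66.3 CPM in USAG-1-overexpressing cells (log2 fold change 0.17, standard error 0.06, adjusted p = 0.0922), and PSME3, the nuclear activator PA28-gamma, differed by 0.06 on the log2 scale (adjusted p = 0.564). Summed counts of PSME1 and PSME2 per count of PSME3 were 0.879, 0.963 and 1.03 in control and 0.755, 0.742 and 0.831 in USAG-1-overexpressing libraries, a ratio chosen after the levels were seen. PSMF1, the inhibitor PI31, was at 119, 117 and 133 CPM against 131, 137 and 139 CPM (adjusted p = 0.213). PSME3, PSME4 and PSMF1 were called higher without control replicate 3 (log2 fold changes 0.13, 0.15 and 0.21, adjusted p = 0.0262, 0.0442 and 0.00712, edgeR).

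Of the chaperones that assemble the core, POMP and PSMG1 to PSMG4, none was called by edgeR (1 with an unadjusted p under 0.05) and 4 of 5 had a log2 fold change below 0. Among all 18188 genes tested, 9544 had a log2 fold change below 0. PSMG3, which binds alpha subunits together with PSMG4, was at 17, 17.5 and 16.6 CPM in control cells and at 14, 13.6 and 15.5 CPM with USAG-1 overexpression, without overlap (log2 fold change -0.24, standard error 0.09, adjusted p = 0.109). POMP, which helps to join the half-cores, differed by -0.10 on the log2 scale (adjusted p = 0.308), and the median of the group was -0.12 and -0.16 without control replicate 3. PSMD5, PSMD9 and PSMD10 are chaperones of the base. PSMD5 had 56.6, 61.5 and 71 CPM in control and 75.4, 72.8 and 74.3 CPM in USAG-1-overexpressing cells (log2 fold change 0.23, standard error 0.09, adjusted p = 0.104), and PSMD9 and PSMD10 overlapped between groups (log2 fold changes -0.08 and 0.10). Without control replicate 3, PSMD5 and PSMD10 were called higher (log2 fold changes 0.33 and 0.22).

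Levels were also summed over the genes of a role group in each library (mean ± SD, n = 3 per group). The ATPase ring summed to 651 ± 64 CPM in the control group and to 717 ± 12.5 CPM in the overexpressing group, and the lid to 1168 ± 69.2 and 1283 ± 26 CPM. In the ATPase ring, control replicate 3, at 725 CPM, lay within the overexpressing libraries (707 to 731 CPM). The other base genes summed to 1662 ± 209 and 1898 ± 66.7 CPM, with control replicate 3 at 1903 CPM, again within the overexpressing libraries. The core chaperones summed to 173 ± 1.94 and 163 ± 3.04 CPM, with control replicate 3 at 171 CPM. The alpha genes summed to 906 ± 55.1 and 900.1 ± 27.5 CPM, the constitutive beta genes to 1343 ± 265 and 1344 ± 28.2 CPM, and the immunoproteasome genes to 160.2 ± 30.7 and 131 ± 3.67 CPM. The beta genes summed to 1199.5 and 1181 CPM in control replicates 1 and 2 and to 1648 CPM in control replicate 3. Counts of the 19 regulatory-particle genes per count of the core alpha and beta genes were 1.6, 1.58 and 1.48 in control libraries and 1.73, 1.76 and 1.72 in libraries with USAG-1 overexpression. All overexpressing libraries were above all controls, also when PSMD2, which held many of these counts, was left out (1.09, 1.08 and 0.977 against 1.15, 1.16 and 1.14). Without control replicate 3 the ratio was higher by 9.26% in place of 11.8%, and by 6.11% in place of 9.7% when PSMD2 was left out. These ratios were chosen after the fold changes were seen and carry no test.

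Genes that bind or regulate proteasomes were taken from lists typed from general knowledge. Of 13 genes whose proteins bind the proteasome or carry substrates to it, 5 rose and 1 fell, where the background is 8.95% and 6.91%. The median log2 fold change of the list was 0.18. The largest rise was in UBQLN4, a ubiquilin that shuttles ubiquitylated proteins to the proteasome, at 68.6, 67.3 and 71.1 CPM in control and 93.8, 96.1 and 92.2 CPM in USAG-1-overexpressing cells (log2 fold change 0.45, standard error 0.06, adjusted p = 0.00203). UBQLN1 rose by 0.20 on the log2 scale (adjusted p = 0.0329, edgeR), whereas UBQLN2 fell, from 50.4, 48.9 and 51.6 CPM to 39.4, 42 and 38.5 CPM (log2 fold change -0.33, standard error 0.06, adjusted p = 0.0108). The shuttle factor RAD23B rose (log2 fold change 0.20, adjusted p = 0.0329, edgeR), as did UCHL5, a deubiquitylase of the base (0.32, adjusted p = 0.0225, edgeR), and ZFAND5 (0.22, adjusted p = 0.0399, edgeR). USP14, the other deubiquitylase of the base, had a log2 fold change of 0.18 (adjusted p = 0.0687, edgeR). USP14 was called higher without control replicate 3 (log2 fold change 0.19, adjusted p = 0.0137, edgeR). ZFAND2A, whose protein binds the proteasome under arsenite stress, lay below all controls in every overexpressing library and missed the threshold (log2 fold change -0.32, adjusted p = 0.0521, edgeR), but it was called lower in 5 of 15 alternatives. With any library other than control replicate 3 left out, 2 or fewer of these genes were called higher, and UBQLN4 was called in all 15 alternatives.

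NFE2L1 and the other genes listed for the NRF1 route showed no call with all libraries. Of 11 tested genes of this route none was called by edgeR (2 with an unadjusted p under 0.05), and the median log2 fold change was 0.11. NFE2L1 was at 307, 308 and 327 CPM in control and 337, 337 and 339.6 CPM in USAG-1-overexpressing cells (log2 fold change 0.11, standard error 0.05, adjusted p = 0.211). Its groups did not overlap, and without control replicate 3 NFE2L1 was called, with a log2 fold change of 0.14 (adjusted p = 0.00838, edgeR). UFD1, AKIRIN2, VCP and NPLOC4 were the other genes of the list called without that library. In the ubiquitin supply, UBA1, the main activating enzyme, rose by 0.23 on the log2 scale (adjusted p = 0.0172, edgeR). RPS27A, which encodes ubiquitin fused to a ribosomal protein, fell by 0.26 on the log2 scale (adjusted p = 0.0164, edgeR). UBB and UBA6 did not pass with all libraries. UBB was called higher without control replicate 3 (log2 fold change 0.24, adjusted p = 0.000602, edgeR).

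Of 11 interferon and class I genes examined, TAP1 fell and none was called higher by edgeR or DESeq2 (2 with an unadjusted p under 0.05 in either direction, edgeR). Over all genes tested, edgeR called 6.91% lower and 8.95% higher. IRF1 and NLRC5, which drive immunoproteasome and class I genes, had log2 fold changes of -0.18 and -0.03 and did not pass, nor did B2M, HLA-B, HLA-C or HLA-E, with log2 fold changes between -0.22 and -0.11. TAP2, TAPBP, ERAP1 and ERAP2, which load or trim peptides, had log2 fold changes of 0.04, 0.13, 0.06 and 0.20 and did not pass either. Both TAPBP and ERAP2 were called higher without control replicate 3 (log2 fold changes 0.20 and 0.13, adjusted p = 0.0016 and 0.043, edgeR). The list of 11 genes had a median of -0.11, and -0.01 without control replicate 3.

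Fold changes of proteasome genes were higher where the gene spans more of the genome. Across the 49 proteasome genes, Spearman's rho between log2 fold change and genomic span was 0.39, and it was 0.20 across all 18188 genes tested. This is a correlation across genes measured in the same 6 libraries, and genes are not independent replicates. The 5 genes that rose had a median span of 41.8 kb, against 17.2 kb for the tested proteasome genes. Over all genes the medians were 58.6 kb for those called higher and 24.3 kb for those tested, so this was not particular to proteasome genes. With an offset for span, PSMC1, PSMC2 and PSMD3 were still called, PSMD1 and PSMD14 were not, and PSMD6 was called in addition (log2 fold change 0.19).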

How the data were processed

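RNA was measured in 3 control and 3 USAG1_OE libraries, grouped by the sample titles. The authors deposited whole-number counts per gene, not normalized, under a name that speaks of FPKM. The processing notes name cutadapt 1.9, FastQC and hg38, and positions are those of the deposited table. The aligner, counter and annotation are not given in the sources used here. Per the labels, libraries were strand-specific, made after poly(A) selection and sequenced as read pairs of 150 bases, whereas the series text speaks of rRNA removal. Library totals were 41236194 to 48699471, at which 3 counts, the limit that a count of 0 allows, are 0.0616 to 0.0728 CPM (counting error only).

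Genes were filtered by filterByExpr, scaled by TMM and tested by edgeR 4.0.16 (quasi-likelihood test, R 4.3.3), with Benjamini-Hochberg adjustment over 18188 genes and a threshold of 0.05, which the paper's methods give for DESeq2. The standard error was taken as the size of the log2 fold change over the root of F. DESeq2 1.42.0 and limma 3.58.1 (voom) were alternatives, as were 2 other scalings, mitochondrially encoded genes left out, no filter, a minimum of 10 counts in each library, an offset for genomic span, a replicate block and each library left out in turn. The code was tested on simulated data. Every member is accounted for. Full values were set for called members, the catalytic and immunoproteasome subunits, PSME1, PSME2 and the gene of smallest p in each role group. PSMC4, PSMC6, PSMD2, PSMD6 and the ratios over the regulatory particle and PSME3 were added after their values were seen. Some genes of the partner lists are not reported here. Members and lists were chosen with earlier results of these data known. Promoter and protein sequences of human genes were not used here.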

Additional observations from a re-analysis of the deposited data

How the results depend on the processing

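The number of proteasome genes called was 5 higher and 0 lower. It was 3 higher with DESeq2's size factors or without the filter on low counts, and the number lower was 2 with DESeq2's Wald test and 1 with library totals alone or with at least 10 counts in every library. With a library left out, 1 to 24 genes were higher and 0 to 2 lower, the highest number higher being that without control replicate 3. Genes called over all genes tested ranged from 1137 (without USAG-1 overexpression replicate 2) to 5091 (without control replicate 3) and were 2884 with all libraries. PSMB4 (0.14), PSMB7 (0.18) and PSMD8 (0.14) changed sign and passed the threshold without control replicate 3, and with each library left out they ranged over -0.13 to 0.14, -0.13 to 0.18 and -0.096 to 0.14. With a library left out, the median log2 fold change ranged over -0.097 to 0.18 in the constitutive beta genes, -0.50 to -0.18 in the immunoproteasome, 0.11 to 0.23 in the ATPases, 0.083 to 0.19 in the lid, -0.13 to 0.021 in the activators and -0.19 to -0.083 in the core chaperones. Proteins bound to the proteasome had 3 genes higher with the span offset, 2 higher without the filter or with a replicate block and 2 lower with DESeq2's Wald test, with at least 10 counts in every library or with library totals alone, and 1 to 7 higher and 0 to 2 lower with a library left out. The NRF1 route had 1 higher with library totals alone and 0 to 5 with a library left out, ubiquitin supply 0 lower with the span offset and 0 to 2 higher and 0 to 1 lower with a library left out. Interferon and class I genes had 0 lower without the filter or with a replicate block, and 0 to 2 higher and 0 to 1 lower with a library left out. The cause of these changes was not tested.

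The shared replicate numbers gave no sign of pairing. Correlations of same-numbered deviations were 0.0701, -0.0544 and 0.0371, and control replicates 2 and 3 correlated best with another number. With deviations taken within groups of 3 libraries, this check cannot show that no pairing existed. With the replicate block 4 proteasome genes were called higher (PSMD14 was lost) and 2381 genes in all. Levels per coding length were not run, because no lengths of this annotation were used here. Libraries of the same group differed by more than counting error, with a chi-square per degree of freedom of 6.8 or more.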
